A study of Mus musculus with 7 samples.

Results

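Lysosomes are acidified by the vacuolar-type proton pump (V-ATPase), and the cathepsins are proteases that work in their lumen. The 42 genes described here are those whose symbols begin with Atp6v0 or Atp6v1, or consist of Cts followed by letters or digits, out of 19933 genes with a probe set of their own on the array. They are 8 genes of the membrane sector V0, 13 genes of the cytosolic sector V1 and 21 cathepsin genes. Each was read from the brightest probe set that the platform annotation assigns to that symbol alone, and all 42 carry the same symbol in the RefSeq gene table. The matching symbols Atp6v0c, Atp6v1fnb, Cts3 and Ctsm and the pseudogenes Atp6v0c-ps1 and Atp6v0c-ps2 had no such probe set and were not analysed here.

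RNA from the livers of 7 male C57BL/6 mice, 4 months old, was hybridised to Affymetrix Mouse Gene ST arrays. Knockout mice (3 arrays) had received AAV-Cre, an adeno-associated virus that delivers Cre recombinase. Rescued mice (4 arrays) had received AAV-Cre and AAV-Flag-HDAC3, so Cre was present in both groups and the rescued mice carried a further vector. Their genotype is labelled HDAC3 rescued wild-type, and the array titles call them WT. HDAC3 is a histone deacetylase of nuclear receptor corepressor complexes. Mice ate freely, and livers were taken 2 weeks after injection at 5 pm (ZT10). The labels name neither a floxed Hdac3 allele nor the promoter that drives Cre. The comparison addresses what differs in liver RNA between mice given Cre alone and mice given Cre together with HDAC3.

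In the V-ATPase, the V1 sector hydrolyses ATP and turns a rotor, which drives a ring of proteolipids in V0 that carries protons across the membrane. Several subunits are encoded by a widely used gene and by isoform genes known from particular tissues, such as kidney, bone, brain or testis. Cathepsins are made as inactive precursors, sorted to lysosomes and activated at acid pH. Most are cysteine proteases, while cathepsin D is an aspartic protease and cathepsin A a serine carboxypeptidase. The liver is rich in lysosomes, both in hepatocytes and in its resident macrophages, the Kupffer cells.

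Levels are log2 intensities with their SD, and each difference is the knockout mean less the rescued mean. A gene is named called when its adjusted p in limma's moderated test over all 19933 genes was under 0.05. On the intensity scale, array medians were 105.01 to 110.85 for knockout livers and 96.3 to 102.33 for rescued livers, so every knockout array had the higher median. The median difference of all genes was 0.09 as deposited, 0.004 with quantile normalization, -0.025 with array medians made equal (median centring) and 0.000 with cyclic loess. Of the calls, 66.3% were higher in the knockout as deposited, and 42.3%, 19.3% and 41.6% in these 3 scalings. Counts of calls are therefore given together with the calls that kept their sign as deposited and in all 3 scalings (called in every scaling). Hdac3 itself was at 8.75 to 9.07 on knockout arrays and at 9.23 to 9.55 on rescued arrays, without overlap (adjusted p = 0.0124), and its probe set may also read the vector's transcript. Of 9 hepatocyte markers 7 were measured, at mean levels from 12.05 to 13.77. None was called by limma, and 1 had an unadjusted p under 0.05. The share of all genes with an unadjusted p under 0.05 was 35.7%, against which such counts are to be read.

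Among the 42 genes, 6 were called, 3 higher and 3 lower in the knockout livers, or 14.3%. The same test called 14.4% of all genes, with 9.54% higher and 4.85% lower, so the share among the pump and cathepsin genes was near the background. The higher genes were Atp6v0d2, Atp6v1e2 and Ctsl, and the lower genes were Atp6v0b, Ctsf and Ctsh. Of these, 5 were called in every scaling, 2 higher and 3 lower, and the exception was Atp6v1e2. Over all genes 6.6% were called in every scaling, 2.3% higher and 4.3% lower. Knockout and rescued arrays had separate ranges for 14 of the 42 genes, 9 higher and 5 lower, and for 29.6% of all genes. The median difference of the 42 genes was 0.076, close to the 0.09 of all genes, and turned to -0.039 with median centring, where that of all genes was -0.025. Their differences ran from -0.44 to 1.61. Atp6v0d2 was the sole member that was called with a difference of at least 1.5-fold, as were 1.61% of all genes.

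**Figure D1:**
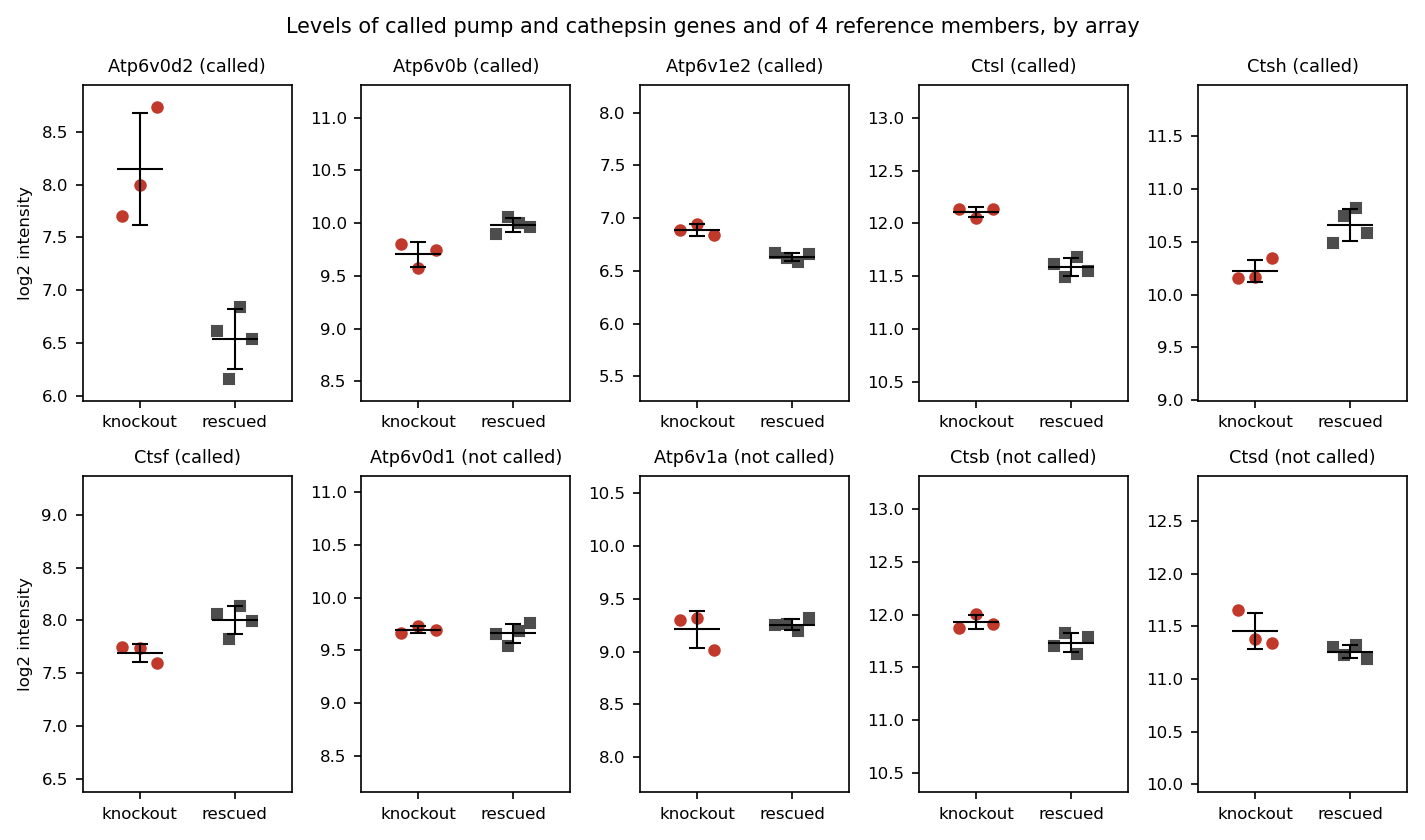
Log2 intensity in each array for the 6 called genes and for Atp6v0d1, Atp6v1a, Ctsb and Ctsd, with knockout arrays as circles (n = 3), rescued arrays as squares (n = 4), and the mean and SD as bars. Each panel spans the same range on the log2 scale, and the groups stand farthest apart for Atp6v0d2, at 8.15 against 6.54.

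Many promoters of lysosomal genes carry the CLEAR element, the site of the transcription factor TFEB, whose core TCACGTGA holds the E-box CACGTG. Both motifs read the same on either strand. RefSeq promoter sequences (GRCm38.p6, 250 bases before to 50 after the start) were matched for 32 of the 42 genes. These 32 genes had 34 promoters. Members are counted by gene below, while the share over all promoters is by promoter. The core was found in 5 of the 32, in 2 V0 genes (Atp6v0d1 and Atp6v0e), 1 V1 gene (Atp6v1a) and 2 cathepsin genes (Ctsa and Ctsd), and in 0.974% of all 32851 promoters. None of these 5 genes was called by limma, and 1 of them, Ctsd, had an unadjusted p under 0.05. The E-box was found in 9 of the 32 and in 7.15% of all promoters, and its further holders were Atp6v0b, Ctsf, Ctsl and Ctsll3. The 250 bases before the start are shown for Ctsl (chr13:64370521-64370770, minus strand), which rose, for Atp6v0b (chr4:117887330-117887579, minus strand), which fell, and for Ctsd (chr7:142387828-142388077, minus strand), which holds the core and was not called. Capitals mark CACGTG.
Ctsl: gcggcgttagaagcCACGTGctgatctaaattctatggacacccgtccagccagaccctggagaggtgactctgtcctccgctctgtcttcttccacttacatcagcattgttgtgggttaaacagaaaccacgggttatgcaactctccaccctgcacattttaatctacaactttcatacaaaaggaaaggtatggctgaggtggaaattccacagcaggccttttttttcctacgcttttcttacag
Atp6v0b: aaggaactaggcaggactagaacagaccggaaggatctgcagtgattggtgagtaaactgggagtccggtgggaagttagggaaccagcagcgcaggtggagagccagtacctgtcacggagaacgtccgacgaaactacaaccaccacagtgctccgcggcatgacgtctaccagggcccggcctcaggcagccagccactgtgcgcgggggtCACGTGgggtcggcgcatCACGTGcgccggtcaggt
Ctsd: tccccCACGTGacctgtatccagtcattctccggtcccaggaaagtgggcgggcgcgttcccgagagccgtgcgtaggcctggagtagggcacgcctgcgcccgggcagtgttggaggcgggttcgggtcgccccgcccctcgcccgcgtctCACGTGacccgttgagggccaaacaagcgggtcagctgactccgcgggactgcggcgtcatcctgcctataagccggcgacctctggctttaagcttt
The E-box begins at position -236 in Ctsl and at -36 and -18 in Atp6v0b, counted from the start. In Ctsd it begins at -245 and -98, and the latter lies in the core. These are matches of letters and show no binding. Whether the annotated starts are the ones used in liver was not tested.

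In the V0 sector, 2 of 8 genes (25%, beside 14.4% of all genes) were called, Atp6v0d2 higher and Atp6v0b lower, both in every scaling. Atp6v0d2 encodes the d2 isoform of the stalk subunit that joins the rotor to the proteolipid ring, known from osteoclasts and macrophages. Its level was 7.71, 7.995 and 8.74 in knockout replicates 1 to 3, and 6.62, 6.16, 6.84 and 6.54 in rescued replicates 1 to 4. Every knockout array lay above every rescued array, and the knockout arrays were spread over a range of more than 1 on the log2 scale. The difference was 1.61 (SE 0.22; 95% interval 1.14 to 2.08), or 3.05-fold, with adjusted p = 0.00181. It kept its call under all 17 alternatives, with differences from 1.31 to 1.83.

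Atp6v0d1, the widely expressed isoform of the same subunit, was at 9.67, 9.73 and 9.69 in the knockout arrays and at 9.65, 9.55, 9.69 and 9.76 in the rescued arrays. The groups overlapped almost fully, and the difference was 0.04 (95% interval -0.12 to 0.19, adjusted p = 0.734). Within each array, the log2 difference of Atp6v0d2 minus Atp6v0d1 was -1.96, -1.74 and -0.95 in knockout and -3.04, -3.38, -2.85 and -3.22 in rescued livers. An offset of a whole array cancels in this quantity. Its size depends on the probe sets, so only its shift between groups can be read. The shift was 1.57, with no overlap between groups.

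The proteolipid ring subunit Atp6v0b was at 9.80, 9.57 and 9.74 in knockout and at 9.90, 10.06, 10.01 and 9.96 in rescued arrays. Every knockout array was below the rescued range. The difference was -0.28 (SE 0.08, adjusted p = 0.0382), or 1.21-fold lower, and ran from -0.32 to -0.21 with an array left out. The call was lost without any of knockout replicates 1, 2 and 3 or rescued replicates 2, 3 and 4 (adjusted p up to 0.0971), and held without rescued replicate 1.

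The other V0 genes were not called. The widely expressed a-subunit genes, which form the proton path together with the ring, differed by 0.14 for Atp6v0a1 (9.67 ± 0.10 against 9.53 ± 0.10) and by -0.01 for Atp6v0a2 (9.48 ± 0.06 against 9.49 ± 0.07). The dimmer of the probe sets of Atp6v0a2 went against this. It was at 9.22, 9.19 and 8.98 in knockout and at 8.77, 8.87, 8.56 and 8.70 in rescued arrays, a difference of 0.40 with adjusted p = 0.0309 in a fit over all 27541 rows of the table. Which probe set follows the Atp6v0a2 transcript better was not tested. The small subunit genes Atp6v0e and Atp6v0e2 differed by 0.13 (adjusted p = 0.294) and -0.02 (adjusted p = 0.82). Atp6v0a4, the isoform of kidney intercalated cells, was at 6.06 ± 0.07 and 5.97 ± 0.16. It lay under 6.21, the 95th percentile of the levels of 1194 genes for olfactory and vomeronasal receptors. Those genes are not known from liver and stand for background here.

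In the V1 sector, 1 of 13 genes (7.69%, beside 14.4% of all genes) was called, Atp6v1e2, and none in every scaling. Atp6v1e2 encodes the E2 isoform of a peripheral stalk subunit, known from testis. It was at 6.88, 6.95 and 6.84 in knockout and at 6.67, 6.62, 6.59 and 6.66 in rescued arrays, so the groups did not overlap. The difference was 0.26 (SE 0.07, adjusted p = 0.0294), and it shrank to 0.15 with quantile normalization (adjusted p = 0.137), 0.14 with median centring (adjusted p = 0.171) and 0.15 with cyclic loess (adjusted p = 0.152). Leaving out knockout replicate 1 or 2, or any rescued replicate but replicate 1, also ended the call.

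Atp6v1a, the catalytic subunit, was at 9.30, 9.32 and 9.01 in knockout and at 9.25, 9.26, 9.19 and 9.32 in rescued arrays. The range of the knockout arrays enclosed every rescued value, and the difference was -0.04 (95% interval -0.23 to 0.14). The other widely expressed V1 genes lay within 0.2 of 0. Atp6v1b2, which encodes the partner of the catalytic subunit in the V1 head, differed by 0.13 and Atp6v1e1 by -0.05. The stalk subunit genes Atp6v1c1 and Atp6v1g1 differed by -0.11 and 0.02, and the rotor subunit gene Atp6v1d by -0.17. Atp6v1g2, the isoform known from neurons, differed by 0.11. None of these 6 was called by limma, and none had an unadjusted p under 0.05.

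The lowest V1 differences were those of the rotor subunit gene Atp6v1f and of Atp6v1h, whose product regulates the pump. Atp6v1f was at 9.79, 9.93 and 9.82 in knockout and at 10.03, 10.01, 10.06 and 10.02 in rescued arrays. Atp6v1h was at 8.34, 8.49 and 8.47 in knockout and at 8.49, 8.62, 8.65 and 8.68 in rescued arrays. Neither gene overlapped between groups, though the margin of Atp6v1h was only 8.491 against 8.494. The differences were -0.18 each, and neither gene was called (adjusted p = 0.0813 and 0.111). After median centring they differed by -0.30 and -0.29 with adjusted p = 0.0208 and 0.0416, and after quantile normalization and cyclic loess they were not called. A dimmer probe set of Atp6v1f differed by -0.11 and one of Atp6v1g1 by 0.45 (adjusted p = 0.568 and 0.0699 over all rows). The median difference of the 13 V1 genes was 0.02 as deposited and turned negative in the scalings, at -0.027 with quantile normalization, -0.095 with median centring and -0.029 with cyclic loess.

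**Figure D2:**
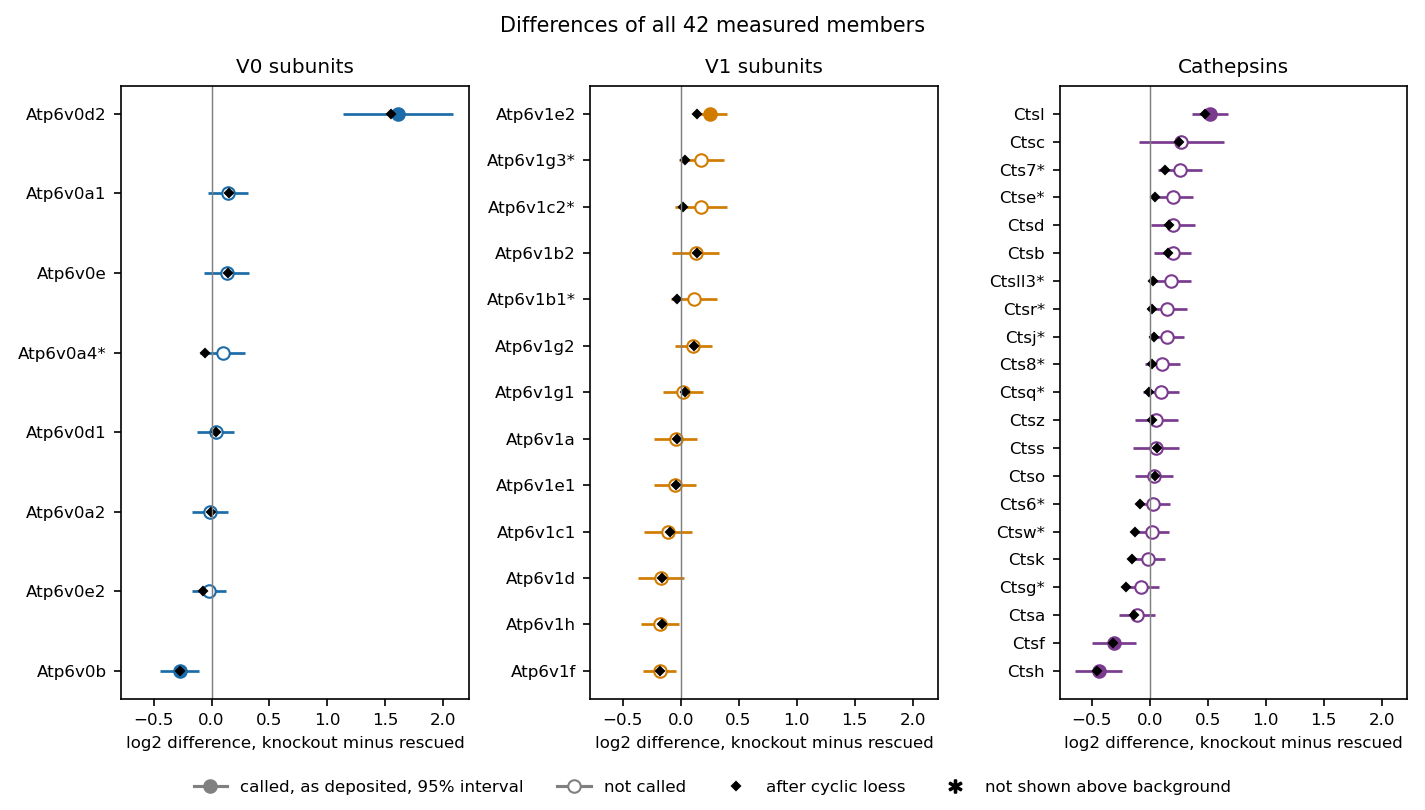
Log2 difference, knockout minus rescued, with its 95% interval for all 42 genes by group, filled where called. Diamonds give the same difference after cyclic loess, and an asterisk marks genes under the 95th percentile of the receptor genes. The diamonds lie left of the circles for all 14 asterisked genes, while those of Ctsf and Ctsh lie on theirs.

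Isoform genes of a subunit were compared within each array in 11 pairs. In 3 pairs the groups did not overlap, Atp6v0d2 minus Atp6v0d1 with a shift of 1.57, Atp6v1e2 minus Atp6v1e1 with 0.30 and Atp6v1g2 minus Atp6v1g1 with 0.09. Each had p = 0.0571 in an exact two-sided permutation test of 3 against 4 arrays, the smallest p that this design can give, and an adjusted p of 0.21 over the 11 pairs. The shift of the last pair turned to -0.12 when the probe sets of Atp6v1g1 were averaged. The other 8 pairs had shifts from -0.15 to 0.29 and overlapped between groups. Among them was the pair of B subunit genes, Atp6v1b1 minus Atp6v1b2, with a shift of -0.015 (p = 0.971 in the exact permutation test).

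Of 21 cathepsin genes 3 (14.3%, beside 14.4% of all genes) were called, Ctsl higher and Ctsh and Ctsf lower, all in every scaling. Ctsl encodes cathepsin L, a cysteine endopeptidase that degrades much of the protein delivered to lysosomes. It was at 12.14, 12.05 and 12.13 in knockout and at 11.61, 11.50, 11.69 and 11.55 in rescued arrays. The groups were well apart and tight within themselves. The difference was 0.52 (SE 0.07; 95% interval 0.37 to 0.68), or 1.43-fold higher, with adjusted p = 0.00192. It was called under all 17 alternatives, with differences from 0.41 to 0.55.

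Ctsh, which encodes an aminopeptidase of the same cysteine protease family, went the other way. Its level was 10.16, 10.17 and 10.35 in knockout and 10.49, 10.75, 10.83 and 10.58 in rescued arrays, without overlap. The difference was -0.44 (SE 0.09, adjusted p = 0.0155), or 1.36-fold lower. Without knockout replicate 1 the call was lost, with adjusted p = 0.0648. Ctsf, which encodes cathepsin F, was at 7.75, 7.74 and 7.60 against 8.06, 7.82, 8.14 and 7.995, and only a narrow gap separated the groups. Its difference was -0.31 (SE 0.09, adjusted p = 0.0370), or 1.24-fold lower. The call of Ctsf held without rescued replicate 2 and was lost without each of the other 6 arrays, with adjusted p up to 0.1.

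The major endopeptidases cathepsin B and cathepsin D were not called, although their groups did not overlap. Ctsb was at 11.87, 12.00 and 11.92 in knockout and at 11.70, 11.83, 11.63 and 11.78 in rescued arrays, a difference of 0.20 with adjusted p = 0.0867. Ctsd was at 11.66, 11.38 and 11.34 against 11.30, 11.22, 11.32 and 11.19, a difference of 0.20 with adjusted p = 0.122. Both stayed uncalled under all 17 alternatives, with differences of 0.08 for each after median centring. The range of Ctsd with an array left out was 0.10 to 0.26.

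Ctsc, which encodes the dipeptidyl peptidase that activates granule serine proteases, had the widest spread in the family, at 10.95 ± 0.35 in knockout and 10.68 ± 0.26 in rescued livers. Knockout replicate 3 was highest at 11.35, the other knockout arrays were at 10.73 and 10.76, and the rescued arrays ran from 10.38 to 10.90. The groups overlapped, and the difference was 0.27 (95% interval -0.09 to 0.64). The carboxypeptidase genes Ctsa and Ctsz differed by -0.11 and 0.06, Ctso by 0.04, and Ctss, which is known from antigen-presenting cells, by 0.05. Ctsk, the collagen-degrading protease of osteoclasts, was just above the background level at 6.27 ± 0.01 and 6.29 ± 0.07. None of these was called by limma or had an unadjusted p under 0.05.

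Of the 21 cathepsin genes, 10 lay under the 95th percentile of the receptor genes, as did Atp6v0a4 and the V1 isoform genes Atp6v1b1, Atp6v1c2 and Atp6v1g3. These 14 genes are not shown to be above background. They include Ctsg of neutrophil granules, Ctsw of cytotoxic lymphocytes, Ctse, known from stomach, and Cts6, Cts7, Cts8, Ctsj, Ctsq and Ctsr, which are known from placenta and whose probes may cross-hybridise among close relatives, besides Ctsll3. None of the 14 was called by limma, and 3 (Cts7, Ctse and Ctsll3) had an unadjusted p under 0.05. Their median difference was 0.13, and 13 of 14 were positive, beside a median of 0.124 among the receptor genes. After cyclic loess the median of the 14 was 0.018, with 8 positive, beside 0.014 among the receptor genes. A pair of probe sets shared by Cts3 and Ctsm lay at 4.71 and 4.14, in the same range. The 28 genes above the background level had a median difference of 0.028 as deposited and -0.087 with median centring, and all 6 calls were among them. All genes above that level had medians of 0.040 and -0.075, close to these. The share called was 21.4% of the 28 genes and 17.1% of all genes above that level.

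**Figure D3:**
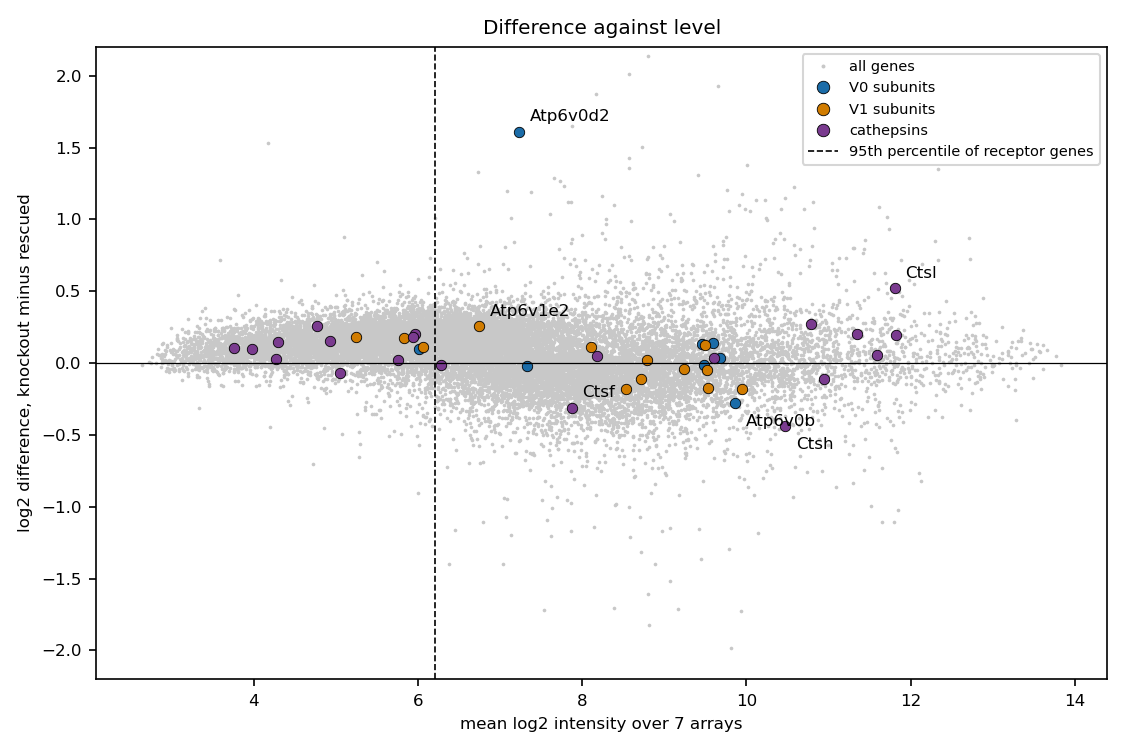
Log2 difference, knockout minus rescued, against the mean log2 intensity over 7 arrays for all genes (grey) and for the V0, V1 and cathepsin genes (coloured), with 3 genes beyond the vertical axis of ±2.2. The dashed line is the 95th percentile of the receptor genes at 6.21. Genes left of it are centred above 0, and Atp6v0d2 lies outside the grey cloud at its level.

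The pump also depends on accessory and assembly proteins. The list of 15 measured genes held genes of this kind and also Tcirg1, which encodes a V0 subunit. Of the 15 genes 6 were called, 5 lower and 1 higher, and 4 and 1 in every scaling. The higher one was Tcirg1, and all called accessory and assembly genes were lower. The share called was 40%, beside 14.4% of all genes, of which 6.6% were called in every scaling. The accessory subunit genes Atp6ap1 and Atp6ap2 were lower, at 10.08 ± 0.19 against 10.52 ± 0.07 and at 8.49 ± 0.20 against 9.01 ± 0.07. Their differences were -0.45 (adjusted p = 0.0125) and -0.52 (adjusted p = 0.00793), and both were called under all 17 alternatives. Dmxl1, whose product helps V1 join V0, and the assembly factor genes Vma21 and Tmem199 were also lower, by -0.37, -0.36 and -0.36. These 3 were named after their values were seen. Without knockout replicate 1 all 3 calls were lost, with differences of -0.35, -0.26 and -0.34 and adjusted p = 0.0788, 0.102 and 0.0661. Leaving out rescued replicate 3 ended all 3 calls too (adjusted p = 0.0544, 0.0874 and 0.0526), rescued replicate 2 those of Dmxl1 and Vma21, and knockout replicate 2 or rescued replicate 4 that of Vma21. Vma21 was the called gene of this list that was not called in every scaling, with adjusted p = 0.0654 with quantile normalization and 0.0663 with cyclic loess. Tcirg1, which encodes the a3 isoform of the V0 a subunit and falls outside the rule by its symbol, was at 9.62 ± 0.06 against 9.20 ± 0.06. It was higher by 0.42 (adjusted p = 0.00496) and was called under all 17 alternatives. The median of the 15 genes was -0.14, beside 0.09 for all genes.

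Lysosomal hydrolases other than cathepsins moved both ways. Of 35 measured genes 12 were called, 4 higher and 8 lower, and 3 and 5 in every scaling, with a list median of -0.12. The share called was 34.3%, beside 14.4% of all genes. Arsa (arylsulfatase A) was higher by 0.74, at 9.22 ± 0.28 against 8.48 ± 0.06. Lipa, the acid lipase that splits cholesteryl esters and triglycerides, was higher by 0.63 (adjusted p = 0.00622). Ids, the sulfatase that starts the breakdown of heparan and dermatan sulfate, was lower by -0.72, at 7.64 ± 0.20 against 8.36 ± 0.08. All 3 were called under all 17 alternatives. Of 25 lysosomal membrane protein genes 4 (16%, beside 14.4% of all genes) were called, 1 higher and 3 lower. In every scaling 3 were called, all lower. The called genes were led by the amino acid transporter gene Slc36a1 at -0.53 (adjusted p = 0.00114). The sialic acid exporter gene Slc17a5 followed at -0.38 and the iron transporter gene Slc11a2 at 0.30. The call of Slc17a5 held when knockout replicate 3 or rescued replicate 1 was left out, and was lost without each other array (adjusted p from 0.0675 to 0.0992). Slc11a2 lost its call when rescued replicate 3 or either of knockout replicates 1 and 2 was left out (adjusted p up to 0.0834), and with median centring its difference was 0.19 (adjusted p = 0.146).

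The lists that follow are to be read beside all genes, of which 14.4% were called, 9.54% higher and 4.85% lower. In every scaling 6.6% of all genes were called. None of 17 genes of mannose 6-phosphate sorting and lysosomal transport was called in limma's test. Among them 1 had an unadjusted p under 0.05, Vps18, with a difference of 0.18 (adjusted p = 0.132). Of 23 genes for MiT/TFE factors, which drive lysosomal gene transcription, and for mTORC1 at the lysosome, 2 were called, 1 higher and 1 lower, and in every scaling 1, the lower one. The amino acid sensor gene Slc38a9 was lower by -0.41 (adjusted p = 0.00977), or by -0.11 (adjusted p = 0.31) when its probe sets were averaged. Fnip2, a folliculin partner, was higher by 0.27, and its call held without knockout replicate 3 and was lost without each other array (adjusted p up to 0.134). With median centring its difference was 0.16 (adjusted p = 0.182), and the call also ended with the replicate block (adjusted p = 0.0579) and when every row was tested (adjusted p = 0.0564). Of 15 cathepsin inhibitor genes 2 (13.3%, beside 14.4% of all genes) were called, both higher, Cst6 (cystatin M) by 0.485 and Ctla2b by 0.47. Cst6 alone was called in every scaling. The mean levels of both lay under the 95th percentile of the receptor genes. Ctla2b lost its call in all 3 scalings and without 5 of the 7 arrays, all but knockout replicate 1 and rescued replicate 4 (adjusted p up to 0.141). Among 26 autophagy genes 7 (26.9%) were called, 6 higher and 1 lower, and 4 and 1 in every scaling. The cargo receptor gene Sqstm1 was higher by 0.50 (12.14 ± 0.05 against 11.64 ± 0.08), Atg14 by 0.49 and Atg12 by 0.46, and the call of Atg14 ended when replicate 2 of either group, knockout replicate 3 or rescued replicate 4 was left out (adjusted p up to 0.0713) and with median centring (difference 0.38, adjusted p = 0.086).

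**Figure D4:**
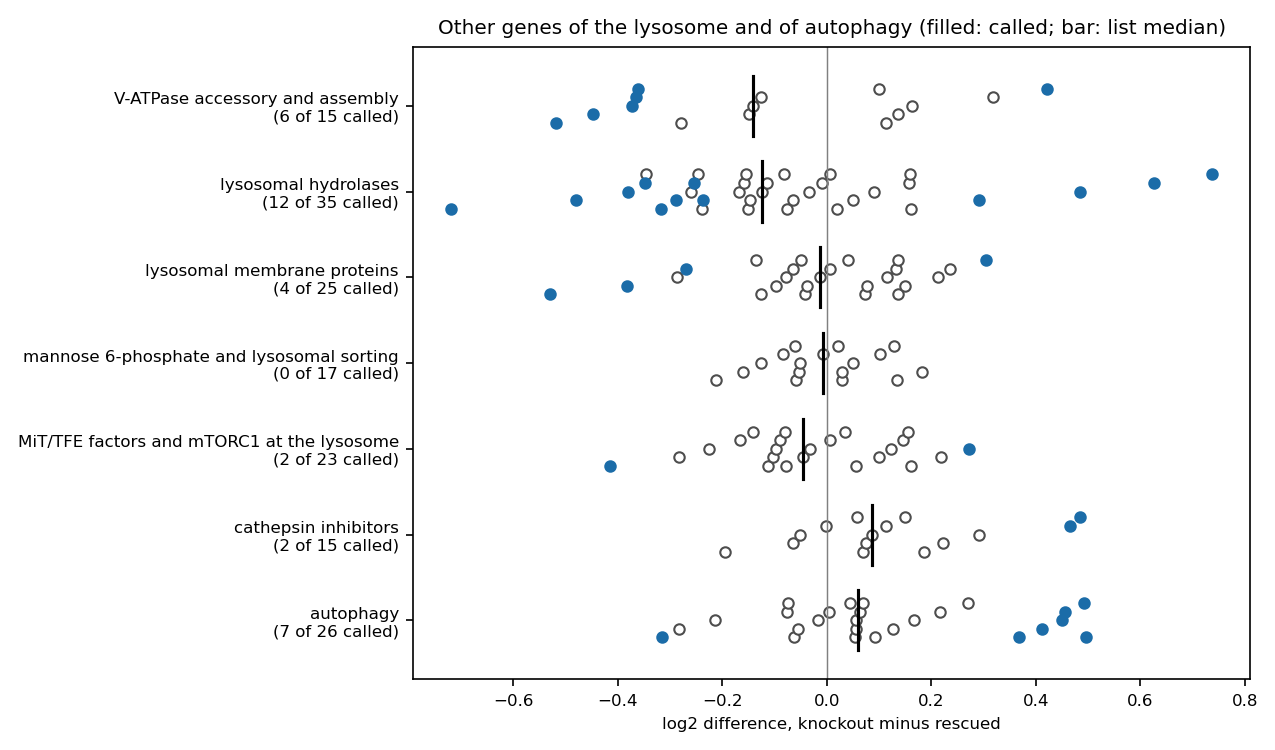
Log2 difference, knockout minus rescued, for each measured gene of 7 other lists, filled where called, with the list median as a bar and points moved vertically only to separate them. The medians of the accessory list (-0.14) and the hydrolases (-0.12) lie left of 0, and called genes of the hydrolases lie on both sides. In the accessory list the called gene right of 0 is Tcirg1, which encodes a V0 subunit.

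Several of these genes are also expressed by leukocytes, and in whole liver RNA more cells of a type and more RNA per cell cannot be told apart. The share of all genes called was 14.4%, against which the counts of called markers are to be read. Of 15 macrophage and Kupffer cell markers 1 was called, Ccr2, at background level and not in every scaling. An unadjusted p under 0.05 was found for 3, Ccr2 at 0.26, Adgre1 at -0.30 and Mpeg1 at -0.24. Of the 15 markers 12 were positive and 3 negative. The median of the 15 markers was 0.139 as deposited, 0.136 with quantile normalization, 0.024 with median centring and 0.147 with cyclic loess. Their summed intensity ran from 5574 to 5982 on knockout arrays and from 4332 to 6367 on rescued arrays, with overlap. Of 6 measured markers of lipid-associated macrophages 2 were called higher, Trem2 and Mmp12, neither in every scaling and the latter at background level. The list median was 0.309 as deposited, 0.243 with quantile normalization, 0.194 with median centring and 0.228 with cyclic loess. For the receptor genes it was 0.124 as deposited and 0.014 with cyclic loess. All 6 markers were positive as deposited and in the 3 scalings, and 5 had an unadjusted p under 0.05. Their sums ran from 909 to 1042 in knockout and from 724 to 860 in rescued arrays, without overlap. Within the knockout group, replicate 3 had the highest Atp6v0d2 level and the lowest sum of both marker lists. It also had the highest sum of the neutrophil markers described below, at 566. What this order of 3 arrays reflects was not tested. None of 6 osteoclast markers was called by limma, 3 had an unadjusted p under 0.05, and Dcstamp, Mmp9 and Calcr were at background level. The sums were 1944 to 2173 and 1922 to 2126. Acp5 weighed most in them, at a mean level of 10.62 beside 5.36 to 7.13 for the other osteoclast markers. Its difference was -0.03, and those of the others ran from 0.11 to 0.35. The list median was 0.165 as deposited and 0.037 with cyclic loess.

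Of 9 neutrophil markers 2 were called higher, Elane and Camp, neither in every scaling, and 5 were at background level, among them Ly6g and S100a8. Their sums were 478 to 566 in knockout and 426 to 453 in rescued arrays. None of 9 T and NK cell markers was called by limma, 5 had an unadjusted p under 0.05 and 5 were at background level. Their sums were 618 to 627 and 519 to 563. None of 4 measured cholangiocyte markers was called, 2 had an unadjusted p under 0.05, and the sums were 513 to 584 and 445 to 492. The median differences of these 3 lists were 0.196, 0.204 and 0.132 as deposited, beside 0.124 for the receptor genes. With cyclic loess they were 0.083, 0.063 and -0.002, beside 0.014 for the receptor genes. The part of these cells in the differences of the pump and cathepsin genes was not tested.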

How the data were processed

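The deposited table holds intensity values on a linear scale from 5.41 to 17351, 1 column per array. Per the submitters' processing notes, RMA (background correction, normalization and summary of probes) and Partek were used, without versions. The last scaling step stays unknown, and the genome build and software versions are not given in the sources used here. Of 27541 rows, 21631 had 1 gene symbol in the platform annotation, 1317 several and 4593 none.

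Log2 was taken, and the brightest row of each gene was tested in R 4.3.3 with limma 3.58.1 (lmFit, then eBayes). The test was two-sided and without covariates, and p-values were adjusted over 19933 genes by the Benjamini-Hochberg method. No filter was applied in this fit, so all 42 members were tested. Scalings used all rows. The fit was tested on simulated data. The labels call the arrays biological replicates, and equal values made up at most 3.79% of the rows between any 2 arrays. Precision is limited by the number of arrays.

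The members and gene lists were chosen with earlier results of these data known. Values in every array are given for called members whose groups do not overlap and for Atp6v0d1, Atp6v1a, Ctsb, Ctsd and Ctsl. Of each other list up to 3 called genes with the largest differences, or the gene with the smallest p, are named. Values by array of Atp6v0a2, Atp6v1f, Atp6v1h and Ctsc were added after they were seen. Alternatives were 3 scalings, 2 filters on dim genes, the mean of rows, all rows and trend with robust spread. Further ones were array weights, a replicate block and each array left out, making up to 17 for a gene. Other thresholds were applied to counts alone and are not among the 17. The dimmer rows of 3 genes were added after seeing the data. Same-numbered arrays deviated from their group means with correlations of 0.151, 0.003 and 0.005, so the numbers were not taken as pairs. Promoters come from RefSeq, build GRCm38.p6. Figures were drawn with matplotlib 3.10.9.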

Additional observations from a re-analysis of the deposited data

Results flagged for a closer look

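Among the genes and isoform pairs described, 41 sets of 4 rescued arrays were examined for an array far from the others, and chance flags about 5% of such sets. In 2 of them an array stood apart. Slc38a9 in rescued replicate 1 was at 8.26, below the other rescued arrays. Vps18 in rescued replicate 3 was at 6.95. Neither gene is a pump subunit or cathepsin, and no such array was found for the called members.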

How the results depend on the processing

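Atp6v0d2 and Ctsl kept their direction and their call under all 17 alternatives, and Ctsh under 16 of them. Atp6v0b kept its call under 9, Ctsf under 8 and Atp6v1e2 under 7 of 16, all with the same direction. The V0 count of 2 was 1 when every row was tested, with the replicate block and at a threshold of 0.01. The V1 count of 1 was 0 after quantile normalization, after cyclic loess, among genes above the median level (where Atp6v1e2 was not tested), with the replicate block and at 0.01. It was 2 after median centring, where both calls were lower, and 2 at a threshold of 0.1. The cathepsin count of 3 was 1 at 0.01 and 6 at 0.1, and 2 with the replicate block. Over all genes the count of 2867 was 509 at 0.01, 5528 at 0.1 and 1938 with the block. With each array left out, the counts ran from 897 to 3263 for all genes, from 1 to 2 for V0, from 0 to 1 for V1 and from 1 to 3 for cathepsins. Leaving out knockout replicate 1 or 2 gave 897 or 1721 genes, and leaving out rescued replicate 2, 3 or 4 gave 1200, 948 or 1331. Uncalled differences near 0 changed sign, that of Atp6v0d1 to -0.080 after median centring. With an array left out, Atp6v0d1 ran from -0.004 to 0.069 and Atp6v1a from -0.097 to 0.057. The difference of Atp6v0a2 was 0.40 on its dimmer row, and the shift of Atp6v1g2 minus Atp6v1g1 was -0.123 with the mean of rows. The shift of Atp6v0d2 minus Atp6v0d1 ran from 1.275 to 1.781 with an array left out. The causes were not tested. Not every same-numbered pair of arrays correlated best with its own number. Intensity near the receptor genes limits what can be said of 14 members.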
